A study of Oryctolagus cuniculus with 4 samples.

Results

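In the stored healthy section of rabbit supraspinatus, 138 of the 2440 capture spots under tissue held at least 1 transcript of GPNMB, and these GPNMB spots are described here. They were chosen by their own GPNMB count: a spot with 1 or more GPNMB UMIs (unique molecular identifiers, each marking 1 captured RNA molecule) was a GPNMB spot, and the 2242 spots with 0 GPNMB UMIs and at least 500 UMIs in all were the GPNMB-0 spots they were compared with. The remaining 60 spots of the section, with 0 GPNMB UMIs and fewer than 500 UMIs, entered neither group. The whole series held 6970 spots. Since GPNMB selected the spots, its counts are given as a description only.

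GPNMB is a transmembrane glycoprotein of lysosome-rich cells, made by macrophages that have taken up lipid or cell debris, by osteoclasts and by melanocytes. Macrophages of this kind, often called lipid-associated, carry lysosomal proteases, galectin-3, osteopontin and, in some tissues, the elastase MMP12. In skeletal muscle, macrophages sit between the fibers and clear the remains of damaged ones.

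The data were 4 Visium sections, 1 per condition, from the posterior distal belly of the supraspinatus of female, skeletally mature New Zealand White rabbits aged 6 months. They were healthy muscle used fresh, healthy muscle stored frozen for 6 years, and muscle collected 2 weeks or 16 weeks after tenotomy, in which the tendon was cut to model a rotator cuff tear, and stored for 6 years as well. The titles of the stored healthy and the 16-week section share a sample number and differ in the letters R and L. If these mark the right and left side of 1 animal, the healthy muscle described here lay opposite an operated shoulder. Neither the titles nor the paper state this. Total UMIs lay between 4079313 and 12536450 per section, the largest being that of the stored healthy section. As each condition had a single section, no difference was tested. Spots of a section are not replicates, and all intervals below are 95% intervals for counting error only. A Visium spot can hold several cells of different types, and fewer cells of a type cannot be told apart from less RNA per cell.

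GPNMB transcripts were concentrated in a single spot. The GPNMB spots held 570 GPNMB UMIs, of which 334 (58.6%) lay in 1 spot, called the richest spot below. The next spots held 22, 12, 6, 6, 5, 5 and 5 UMIs. A further 29 spots held 2 to 4 UMIs each and 74 together, and 101 spots held a single UMI. The spots just inside the selection thus held 1 UMI and those just outside held 0. The main comparisons below are given with the richest spot and without it.

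**Figure D1:**
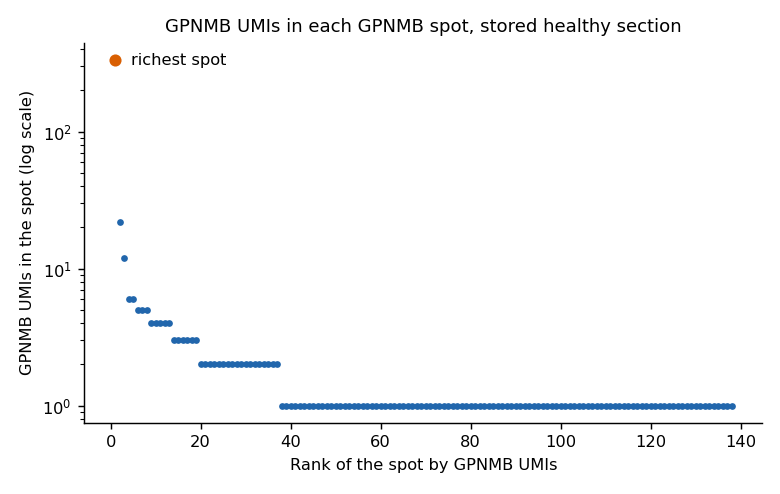
GPNMB UMIs (log scale) in each of the 138 GPNMB spots of the stored healthy section, ordered by rank, each point being 1 spot. The richest spot held 334 UMIs and the second 22, and 101 spots held 1.

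GPNMB spots were slightly deeper than GPNMB-0 spots, with a median of 5642 against 5213 UMIs and of 734 against 690 genes per spot. After each spot was thinned to 2000 UMIs, the medians were 408 and 401 genes, with 2 GPNMB and 110 GPNMB-0 spots left out as too shallow. Mitochondrial transcripts made up a median of 50.1% and 50.9% of the UMIs. The fiber type around the spots differed more. MYH7, the slow myosin heavy chain, gave 39.6% of the summed UMIs of the heavy chains MYH1, MYH4, MYH7 and MYH8 in GPNMB spots and 56.2% in GPNMB-0 spots.

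Among 3669 features with 50 or more UMIs over both groups, 131 (3.57%) had a share of UMIs at least 2-fold higher in GPNMB spots, and 134 (3.65%) a share at least 2-fold lower. Without the richest spot, 100 of 3663 (2.73%) were higher and 155 (4.23%) lower, and 89 of the higher and 128 of the lower features were past 2-fold both ways. The median log2 ratio over all features was 0.08, and 0.04 without the richest spot. GPNMB spots held 6.41% of the UMIs, so a feature at the minimum of 50 UMIs would have about 3.21 of them there, and 12 of the 134 lower features had 0, which leaves 122 with a UMI there. As the minimum was taken over both groups, a gene could also pass it through its counts in GPNMB spots alone, as MMP12 and ATP6V0D2 did. CCL2, AOAH and ARHGAP18, also named below among the highest, had 36, 47 and 43 UMIs in GPNMB-0 spots. They passed the minimum only with their UMIs in GPNMB spots added. With the minimum set on the GPNMB-0 spots only, a choice made after the values were seen, 105 of 3561 features (2.95%) were higher and 132 (3.71%) lower, and 78 (2.19%) and 153 (4.30%) without the richest spot. These shares past 2-fold are the background against which the gene groups below are read.

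The genes furthest above the background were led by MMP12, the macrophage elastase, and ATP6V0D2, a subunit of the proton pump that acidifies lysosomes, which is typical of osteoclasts and some macrophages. MMP12 was absent from 115 of the 138 GPNMB spots, giving a median of 0, and reached 179 UMIs in the richest spot, followed by 10 in the spot with the second most. In the 8 spots with 5 or more GPNMB UMIs, taken in the order of their GPNMB UMIs, the MMP12 counts were 179, 10, 7, 1, 0, 2, 2 and 0. No GPNMB-0 spot held more than 3. MMP12 summed to 232 UMIs in the 138 GPNMB spots and to 23 in the 2242 GPNMB-0 spots, 147-fold higher relative to all UMIs (95.8 to 237). Without the richest spot 53 UMIs remained and the ratio was 34.4 (20.7 to 58.7), so that an excess was also counted in the other GPNMB spots. Whether their counts were independent of the richest spot was not tested.

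ATP6V0D2 had a like pattern at lower counts. The richest spot held 37 UMIs, the other GPNMB spots at most 1 each and the GPNMB-0 spots at most 1 each. Its sums were 52 against 8 UMIs, a ratio of 94.9 (44.8 to 231), and 15 against 8 without the richest spot, a ratio of 28.0 (11.1 to 76.1). Of the 8 spots with 5 or more GPNMB UMIs, 7 (87.5%) held at least 1 ATP6V0D2 UMI, and 0.357% of the GPNMB-0 spots did.

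LGALS3, which encodes galectin-3, a lectin of activated macrophages, was detected in 68 GPNMB spots and reached 391 UMIs in the richest spot, 24 in the next and at most 7 in any GPNMB-0 spot. It was 10.4-fold higher in GPNMB spots (9.34 to 11.6), with 586 against 822 UMIs, and 3.54-fold higher (3.01 to 4.14) without the richest spot. CD68, a lysosomal membrane protein used as a macrophage marker, had 69 UMIs in the richest spot and at most 6 in another GPNMB spot. Its sums were 103 against 175 UMIs, a ratio of 8.59 (6.67 to 11.0), and 34 against 175 without the richest spot, a ratio of 2.90 (1.94 to 4.20). Both genes were thus past 2-fold either way.

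CAPG, an actin-capping protein of macrophages, SPP1, which encodes osteopontin, and a cathepsin named CTSV in the count table followed. CAPG was 6.62-fold higher (5.0 to 8.70) with 78 against 172 UMIs, and 2.51-fold higher (1.64 to 3.74) without the richest spot. SPP1 was 5.54-fold higher (3.59 to 8.35) with 33 against 87 UMIs, and 2.06-fold higher (1.02 to 3.78) without the richest spot, from 12 UMIs. CTSV was 4.97-fold higher (4.30 to 5.73) with 260 against 763 UMIs, and 2.03-fold higher (1.64 to 2.50) without it. For 3 further genes the richest spot carried the difference. GLIPR1 had a ratio of 4.5 with it and 1.43 (0.633 to 2.83) without it, AOAH, a lipase that detoxifies bacterial lipopolysaccharide, 4.04 and 0.952 (0.189 to 2.96), and SNX10, a sorting nexin of osteoclasts, 3.55 and 1.70 (0.708 to 3.55).

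The remaining genes of the highest 15 had other distributions. All 14 CCL2 UMIs of the GPNMB spots, a chemokine that attracts monocytes, lay in 1 spot, which held 1 GPNMB UMI, and without that spot its log2 ratio turned from 2.54 to -2.31. MYL4, the embryonic and atrial myosin light chain, had 45 against 89 UMIs, a ratio of 7.38 (5.04 to 10.7), but 30 of the 45 lay in 1 spot, and its log2 ratio was 2.89 with that spot and 1.37 without it. The richest spot held 7 more, 54.6 times the GPNMB-0 share (21.3 to 117). GSTA5, ARHGAP18 and CCDC15 had ratios between 3.65 and 4.05 from 11 to 23 UMIs, with at most 4 in a single GPNMB spot. CCDC15 had 4 of its 15 UMIs in the richest spot, 46.3 times the GPNMB-0 share (12.2 to 125), and GSTA5 and ARHGAP18 had 0 there.

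**Figure D2:**
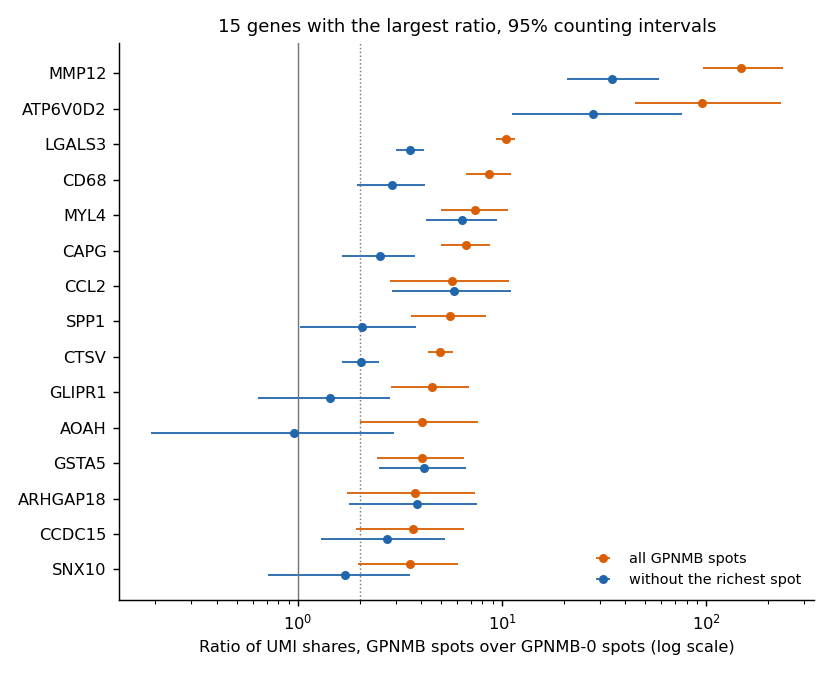
Ratio of UMI shares in GPNMB over GPNMB-0 spots (log scale) for the 15 genes with the largest log2 ratio, with 95% counting intervals, for all 138 GPNMB spots and for the 137 without the richest. The solid line marks equal shares and the dotted line a 2-fold ratio. MMP12 moved from 147 to 34.4 and AOAH from 4.04 to 0.952.

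The 10 genes with the lowest log2 ratio all had 0 UMIs in GPNMB spots, and their sums in GPNMB-0 spots ranged from 50 to 81. With 3 UMIs over the group set in place of 0, they would be 1.14-fold (NOL8) to 1.85-fold lower (TNMD, tenomodulin, a gene of tendon and fascia cells). The exact intervals of their ratios ended higher, at 0.680 for TNMD. Those of ENHO (1.05) and NOL8 (1.12) included equal shares. ALAS2, the heme synthesis enzyme of red cell precursors, had 75 UMIs in GPNMB-0 spots, 12 of them in 1 spot. It would be 1.71-fold lower at the 3 UMIs, and its interval ended at 0.736. At these counts none of the 10 was shown to be 2-fold lower, though each counts among the 134.

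The richest spot was read on its own, because 1 spot gave most of the counts. It held 16884 UMIs, the second most of all spots in the section, and 2052 genes. Mitochondrial transcripts made up 19.5% of its UMIs, against 49.3% of the UMIs of the GPNMB-0 spots. It held 70.2% of all MMP12 UMIs of the section, 61.7% of ATP6V0D2, 27.8% of LGALS3 and 24.8% of CD68. At the share seen in GPNMB-0 spots it would have held 0.0331 MMP12, 1.18 LGALS3 and 0.252 CD68 UMIs. The observed 179, 391 and 69 were 5402, 330 and 274 times as many.

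Lysosomal genes stood beside them. The spot held 191 UMIs of the protease CTSB (79.7 times the GPNMB-0 share, 68.3 to 92.7) and 156 of CTSV (142 times, 119 to 169). It held 100 UMIs of CTSK, the collagen-degrading cathepsin of osteoclasts (45.6 times, 36.9 to 55.9). GRN, the lysosomal protein progranulin, had 51 UMIs (32.5 times) and the protease LGMN 40 (23.2 times). The proton pump subunits and partners ATP6V1B2 and ATP6AP2 had 23 and 13 UMIs (34.0 and 71.1 times). SLC15A3, a lysosomal peptide transporter, had 14 UMIs (87.5 times), TXN, thioredoxin, 133 (39.2 times) and PLAU, the urokinase protease, 18 (31.7 times).

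Several macrophage genes had no UMI in the richest spot, but were also too sparse for one to be likely at the GPNMB-0 share. C1QA, C1QB and C1QC, the chains of complement C1q made by resident macrophages, each had 0 UMIs, as did CD163 and MRC1, scavenger and mannose receptors of resident macrophages. At the GPNMB-0 share the spot would have held 0.471, 0.101, 0.373, 0.00864 and 0.0403 UMIs of these genes, so no lower level was detectable. A rise like that of CD68, with 69 UMIs against 0.252 expected, was not seen for C1QA or C1QC. Their intervals ended at 7.87 and 9.96 times the GPNMB-0 share. The receptor of macrophage colony stimulating factor, CSF1R, had 9 UMIs, 17.5 times the GPNMB-0 share, CD14, the lipopolysaccharide co-receptor, had 5 and AIF1 had 7. CD74 and HLA-DRA of the antigen presentation machinery had 4 and 10 UMIs, 8.17 and 9.06 times the GPNMB-0 share.

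Several fibroblast transcripts, though not all, were above the GPNMB-0 share in that spot as well. COL3A1 had 109 UMIs, 4.32 times that share (3.54 to 5.21), COL1A2 had 88 (5.22 times, 4.18 to 6.43) and LUM, the matrix proteoglycan lumican, 42 (6.02 times, 4.33 to 8.15). FN1 had 16 UMIs (2.41 times, 1.38 to 3.92). DCN, with 13 UMIs, was at 0.881 times that share (0.469 to 1.51), and DPT, with 4, at 1.93 times (0.524 to 4.94). Of the 12 fibroblast genes with a feature, 7 had a UMI in the spot. The summed fibroblast list was at 166 UMIs per 10000 in the richest spot and at 44.1 in GPNMB-0 spots.

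MLANA, a melanosomal protein used as a melanocyte marker, was counted 15 times in the richest spot, which is 41.7% of its UMIs in the section and 694 times the GPNMB-0 share (316 to 1524). With 21 UMIs in GPNMB and 15 in GPNMB-0 spots it lay under the minimum of 50. Its ratio was 20.4 (10.0 to 42.6), and 5.96 (1.90 to 16.3) from 6 UMIs without the richest spot. The pigment enzymes TYR, TYRP1 and DCT had 0 UMIs in both groups of spots, MITF had 1 against 16 and KIT 4 against 33, with 0 of either in the richest spot. Of the 8 listed melanocyte genes, 6 had a feature, and only MLANA had a UMI in the richest spot.

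Many muscle and mitochondrial transcripts were low in that spot. Among 96 genes with an expectation of at least 20 UMIs there, 38 were at least 2-fold lower and 12 at least 2-fold higher than the GPNMB-0 share. The 96 and the 38 include mitochondrial genes, which ranged from 0.178 (ND5) to 0.482 (ATP6) times that share. Among named genes other than mitochondrial ones, the lowest were genes of slow fibers. STRIT1, a regulator of the calcium pump, had 2 UMIs against 32.7 expected. MYL3 had 8 against 88.1 and MYL2 52 against 433, the latter pair being slow light chains. MYH7 had 23 against 177. The fast chain MYH1 had 94 against 136, a ratio of 0.689 (0.557 to 0.843), so that fast transcripts were closer to the GPNMB-0 share than slow ones. As raw counts, STRIT1, MYL3, MYL2 and MYH7 were also below their medians of 7, 21, 87 and 33 UMIs per GPNMB-0 spot. MYH1 was above its median of 28. Part of the spot's UMIs was taken by genes such as LGALS3, at 232 UMIs per 10000 there and 0.701 in GPNMB-0 spots. The share of this in the lower muscle values was not tested.

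**Figure D3:**
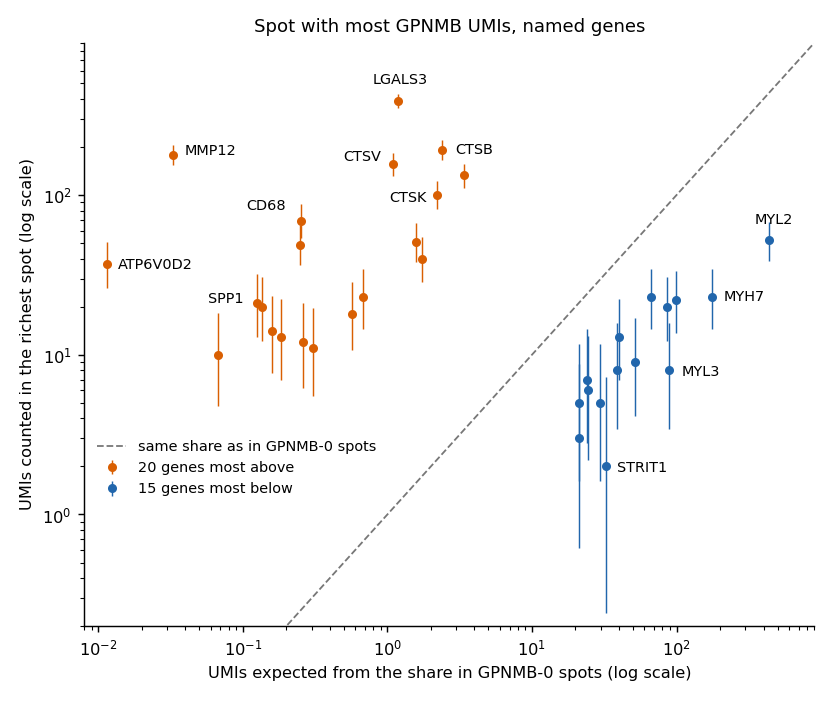
UMIs counted in the richest spot against the UMIs expected from the share in GPNMB-0 spots, both on log scales, with 95% Poisson intervals. Shown are the 20 named genes most above and the 15 most below that share. Mitochondrial genes were left out of the 15. The dashed line marks equal shares. LGALS3 (391 against 1.18) and MMP12 (179 against 0.0331) lie far above it and MYH7 (23 against 177) below it.

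The levels followed the number of GPNMB UMIs in a spot down to small numbers for some genes. MMP12 was at 0.0196 UMIs per 10000 in GPNMB-0 spots (0.0124 to 0.0294). It was at 0.122 (0.0490 to 0.251) in the 101 spots with 1 GPNMB UMI and at 1.49 (0.954 to 2.22) in the 29 spots with 2 to 4. In the 7 spots with 5 to 22 it was at 4.41 (2.76 to 6.67), and in the richest spot at 106. The intervals of neighboring steps did not overlap, and the spots just inside the selection stood above those just outside it.

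LGALS3 had a higher base and a flatter course, with 0.701 UMIs per 10000 at 0 GPNMB UMIs, 1.10 (0.842 to 1.40) at 1 UMI, 3.66 at 2 to 4 UMIs, 14.6 at 5 to 22 and 232 in the richest spot. CTSB did not differ between spots with 0 and 1 GPNMB UMI beyond counting error, at 1.42 (1.35 to 1.49) and 1.34 (1.06 to 1.67). It was at 4.34 with 2 to 4 UMIs, 9.82 with 5 to 22 and 113 in the richest spot. CTSK was alike, at 1.30, 1.22, 2.42, 5.81 and 59.2. CSF1R was at 0.306, 0.296, 0.559 and 0.601 in the first 4 steps, with overlapping intervals, and at 5.33 (2.44 to 10.1) in the richest spot.

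Counted per GPNMB UMI, which is itself the selecting count, the excess over the GPNMB-0 share was of similar size in the richest spot and in the 7 next for some genes and not for others. For LGALS3 it was 1.17 UMIs per GPNMB UMI in the richest spot and 1.14 in the 7 next, for CTSB 0.565 and 0.687, and for CTSK 0.293 and 0.369. ATP6V0D2 gave 0.111 and 0.0978, CAPG 0.146 and 0.119, and SPP1 0.0625 and 0.0595. MMP12 gave 0.536 in the richest spot, 0.359 in the 7 next, 0.320 at 2 to 4 UMIs and 0.0581 at 1 UMI. For CD14 the excess was 0.0141 UMIs per GPNMB UMI in the richest spot and 0.117 in the 7 next, for AIF1 0.0200 and 0.0672, and for HLA-DRA 0.0266 and 0.160. In the 7 next, these 3 genes had 8, 5 and 13 UMIs. Of these, 4, 4 and 8 lay in 1 spot, which held 15847 UMIs in all. For ATP6AP2 the excess was 0.0384 and 0.00753, the latter from 1 UMI. The values per GPNMB UMI carry no intervals, and the differences between them were not tested. As the divisor also chose and grouped the spots, neither their similar size nor their fall toward 1 GPNMB UMI is read as a result.

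**Figure D4:**
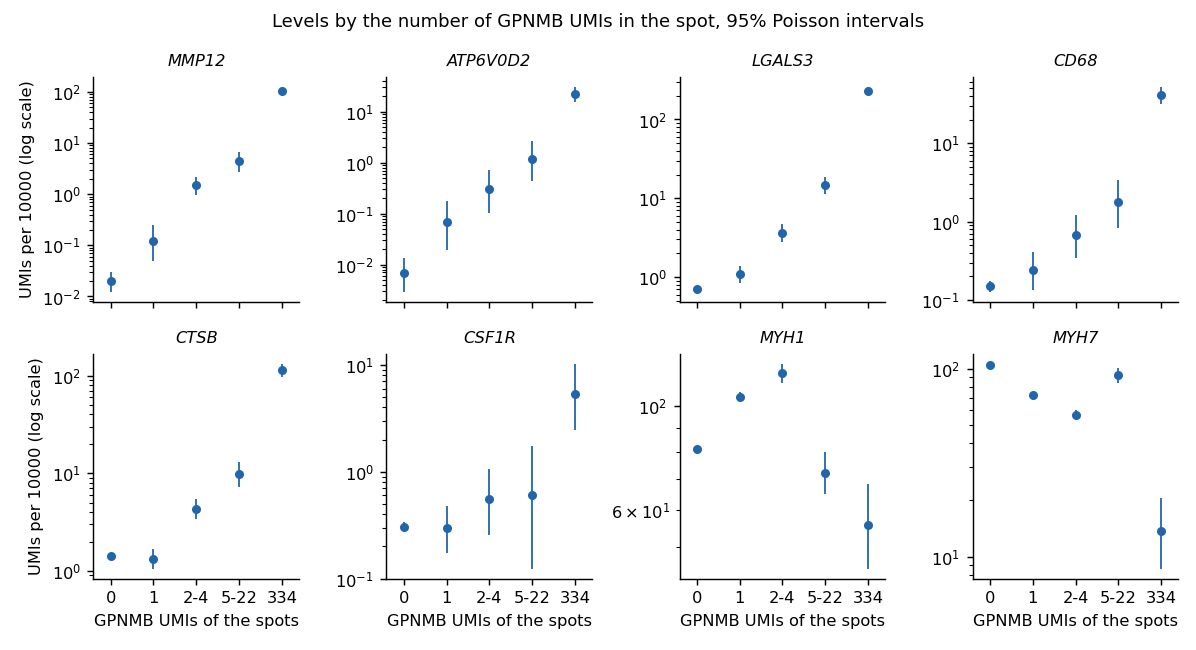
UMIs per 10000 UMIs (log scale) of 8 genes in spots grouped by their GPNMB UMIs, with 95% Poisson intervals, the last group being the richest spot alone. MMP12 climbed from 0.0196 to 106, CTSB was flat between 0 and 1 GPNMB UMI, and MYH7 was at 105 at 0 GPNMB UMIs and 13.6 in the richest spot.

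Shares of spots gave the same order at equal depth. Without the richest spot, 22 of 137 GPNMB spots held an MMP12 UMI (16.1%, 10.4 to 23.3%) and 20 of 2242 GPNMB-0 spots did (0.892%, 0.546 to 1.37%). After thinning to 2000 UMIs the shares were 8.15% and 0.281%. LGALS3 was found in 48.9% and 24.1% of the spots, and in 27.4% and 12.3% after thinning. CD68 was found in 13.9% (8.56 to 20.8%) and 6.65% (5.65 to 7.76%), and in 7.41% and 2.11% after thinning. The shares of CSF1R, 16.1% and 11.5%, and of COL1A1, a fibroblast collagen, 29.9% and 27.7%, had intervals that overlapped.

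Among the cell type and pathway lists, the largest shares of genes past 2-fold higher were those of osteoclasts and giant cells (2 of 2), lipid-associated macrophages (7 of 11), macrophages (3 of 7) and lysosomes (6 of 17). These lists share members, among them CTSK, CTSB, CD68 and ATP6V0D2, and are not independent. With the minimum of 50 UMIs on GPNMB-0 spots alone, the shares were 1 of 1, 6 of 10, 3 of 7 and 5 of 16. Leaving out the richest spot as well, they were 0 of 1, 3 of 10, 3 of 7 and 1 of 16. Of 25 lipid-associated macrophage genes, 15 had a feature and 11 at least 50 UMIs. Of these 11, 7 were past 2-fold higher (LGALS3, MMP12, CAPG, SPP1, CTSB, PLA2G7 and CTSK), and none lower, with a median log2 ratio of 1.43. Leaving out the richest spot, 4 were (LGALS3, MMP12, CAPG and SPP1) and the median was 0.68. MMP12 reached the minimum through GPNMB spots alone, and without it 6 of 10 were past 2-fold, or 3 of 10 without the richest spot. PLA2G7, a lipoprotein phospholipase, was 2.64-fold higher (1.58 to 4.23), and 1.54-fold (0.775 to 2.80) without the richest spot. FABP5, a fatty acid carrier, was 1.44-fold higher (1.26 to 1.65), and 1.17-fold (1.01 to 1.36) without it, and LPL, lipoprotein lipase, was at 0.993-fold and 0.876-fold. In the richest spot alone FABP5 and LPL were at 13.9 and 6.43 times the GPNMB-0 share. TREM2 and APOE, which also define this macrophage state, had no feature under their symbols.

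Of 45 lysosome genes, 27 had a feature and 17 at least 50 UMIs. All 17 had a log2 ratio above 0, 6 of them past 2-fold, with a median of 0.79. With the richest spot left out the median was 0.47 and 1 gene was past 2-fold, CD68. ATP6V0D2, with 15 and 8 UMIs left, was under the minimum and not counted there, though its ratio was still 28.0. The 6 were CD68, ATP6V0D2, CTSB, CTSK, ATP6AP2 and ATP6V1B2. GRN was 1.84-fold higher (1.53 to 2.20), and 1.18-fold (0.934 to 1.47) without the richest spot. LGMN was 1.64-fold higher (1.37 to 1.97), and 1.18-fold (0.948 to 1.46) without it. TFEB, the transcription factor that switches on lysosome genes, was 1.70-fold higher (1.09 to 2.56), and 1.60-fold (1.01 to 2.45) without it.

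General macrophage markers were higher by less. Of 20, 14 had a feature and 7 at least 50 UMIs, with a median log2 ratio of 0.65, and 0.37 without the richest spot. CD68, CD14 and AIF1 were past 2-fold both ways. CD14 was 2.69-fold higher (1.84 to 3.83) and AIF1 2.56-fold (1.75 to 3.64), and without the richest spot 2.37-fold (1.58 to 3.46) and 2.12-fold (1.40 to 3.12). Of the 32 CD14 and 30 AIF1 UMIs left then, 10 and 14 lay in 1 spot, and ratios without that spot are not given. In the 101 spots with 1 GPNMB UMI, both genes were at 0.122 UMIs per 10000 (0.0490 to 0.251). GPNMB-0 spots were at 0.172 for CD14 and 0.180 for AIF1. CSF1R was 1.55-fold higher (1.08 to 2.17), but 1.21-fold (0.797 to 1.77) without the richest spot, an interval that includes equal shares. C1QA, C1QB and C1QC had 16, 4 and 22 UMIs, with ratios of 0.714 (0.404 to 1.18), 0.834 (0.221 to 2.23) and 1.24 (0.764 to 1.92), so equal shares lay within each interval. Markers of resident macrophages had 2 members with at least 50 UMIs, STAB1 at 1.26-fold (0.858 to 1.81) and IGF1 at 1.43-fold (0.828 to 2.32), and the list summed to 0.685 UMIs per 10000 in GPNMB and 0.516 in GPNMB-0 spots. CD163 and MRC1 were scarce in the whole section, with 1 and 2 UMIs in GPNMB spots against 0.411 and 1.92 expected from the GPNMB-0 share.

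Of 12 osteoclast and giant cell genes, 3 had a feature. ATP6V0D2 and CTSK were past 2-fold, and CALCR, the calcitonin receptor, had 0 UMIs in GPNMB spots and 4 in GPNMB-0 spots. ATP6V0D2 reached the minimum of 50 through its 52 UMIs in GPNMB spots. Once the richest spot was left out, CTSK stood at 138 UMIs and a log2 ratio of 0.44, and ATP6V0D2 was still 28.0-fold higher (11.1 to 76.1) but under the minimum, so that no gene was counted. Antigen presentation genes had 7 members with at least 50 UMIs and a median log2 ratio of 0.74, or 0.59 without the richest spot. HLA-DMA, which loads peptides onto class II molecules, was the only one past 2-fold (2.56, 1.57 to 4.01), and none was without the richest spot, where HLA-DMA stood at 1.82 (1.01 to 3.07). HLA-DRA was 1.66-fold higher (1.31 to 2.07), and 1.5-fold (1.17 to 1.90) without it. Complement genes had a median log2 ratio of 0.0019 over 7 members, matrix proteases and inhibitors -0.02 over 7 with MMP12 alone past 2-fold, and phagocytic receptors 0.26 over 4.

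Over all GPNMB spots, lists of connective tissue, vessel and fat cells lay close to the background median log2 ratio of 0.08. The few tested cell cycle, chemokine and iron genes had medians above it. Over 10 fibroblast genes the median log2 ratio was 0.09, with COL1A1 at 1.04-fold (0.811 to 1.31) and COL3A1 at 1.12-fold (1.06 to 1.19). Without the richest spot COL1A1 was at 0.949-fold (0.730 to 1.22) and COL3A1 at 1.05-fold (0.994 to 1.12). Endothelial genes had a median of 0.11 over 4 members and smooth muscle and pericyte genes 0.17 over 4. Markers of T cells and of B and plasma cells had 0 UMIs in all GPNMB spots. Neutrophil and mast cell markers were sparse, at 0.125 UMIs per 10000 in GPNMB and 0.0887 in GPNMB-0 spots. Cell cycle genes had a median of 0.51 over 3 members, with MCM5 at 5 against 49 UMIs and MCM3 at 5 against 56. Chemokines and cytokines had a median of 0.55 over 3 members, with CCL2 alone past 2-fold. CCL2 reached the minimum of 50 UMIs only through the 14 in 1 GPNMB spot. Without the richest spot, the cell cycle and chemokine medians were 0.54 and 0.58, and that of the macrophage list 0.37. Iron and heme genes had a median of 0.37 over 2, which turned to -0.16 without the richest spot, and adipocyte genes -0.03 over 2. S100B was the only Schwann cell gene with 50 UMIs (0.938, 0.420 to 1.83), and ALAS2 the only blood gene with a feature.

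Fast fiber genes had slightly higher and most slow fiber genes lower shares in GPNMB spots. All 6 fast fiber genes with a feature were higher, with a median log2 ratio of 0.37. MYH1 had a median of 53.5 UMIs per GPNMB spot and 28 per GPNMB-0 spot, and was 1.29-fold higher (1.26 to 1.32). Of 9 slow fiber genes, 8 were lower and TNNI1 was not, with a median of -0.49, and MYH7 was at 0.662-fold (0.644 to 0.680). None of the 15 genes was past 2-fold. When the GPNMB-0 spots were weighted to the MYH7 shares of the GPNMB spots, the log2 ratio of MYH7 was -0.06 and that of MYH1 -0.15. MMP12 was then at 6.68, LGALS3 at 3.72 and CD68 at 3.47. These weighted values include the richest spot and are not given without it. Of 14 regenerating fiber and satellite cell genes with a feature, 10 had 50 UMIs, with MYL4 alone past 2-fold higher and NCAM1, with 1 against 59 UMIs (0.247, 0.00616 to 1.43), lower. One of the 2 spots with 6 GPNMB UMIs held 30 UMIs of MYL4 and 53 of the neonatal chain MYH8, of 45 and 97 in all GPNMB spots, and without its own top spot MYH8 went from a log2 ratio of 0.87 to -0.23.

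GPNMB spots were next compared with 385 GPNMB-0 spots chosen for a UMI of CD68, CD163, MRC1 or CSF1R, called macrophage spots. Only 37 of the 138 GPNMB spots (26.8%) held such a UMI themselves, so that levels of macrophage genes in this comparison depend on how the macrophage spots were chosen. Of 2098 features tested, 22 (1.05%) were at least 2-fold higher in GPNMB spots and 80 (3.81%) lower. MMP12 had 232 against 2 UMIs, a ratio of 345 (94.4 to 2864), and 80.5 (21.2 to 682) without the richest spot, and ATP6V0D2 had 52 against 1. LGALS3 was 5.22-fold higher (4.55 to 5.98), and 1.77-fold (1.48 to 2.12) without the richest spot. CAPG was 2.97-fold higher with it and 1.13-fold (0.711 to 1.75) without it, and CTSV 3.63-fold and 1.48-fold (1.16 to 1.88). The other 3 of the highest 8 were muscle genes, which stayed past 2-fold without the richest spot. MYL4 was 6.69-fold higher with it and 5.77-fold (3.27 to 10.5) without it, MYH4 3.40-fold and 3.14-fold (1.81 to 5.49), and MYH8 2.53-fold and 2.37-fold (1.78 to 3.16). Of the 45 MYL4 and 97 MYH8 UMIs, 30 and 53 lay in 1 spot. Some lysosomal and lipid-associated genes were not above the macrophage spots once the richest spot was left out. CTSK was at 1.0-fold with it and 0.593-fold (0.490 to 0.712) without it, GRN at 1.07 and 0.689-fold (0.539 to 0.873), and SPP1 at 1.75 and 0.651-fold (0.317 to 1.23).

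Other genes had lower shares in GPNMB spots than in the macrophage spots. C1QA had 16 against 135 UMIs, a ratio of 0.352 (0.196 to 0.593), and C1QB 4 against 34, a ratio of 0.350 (0.0901 to 0.981). CD74 was at 0.557-fold (0.372 to 0.812), HLA-DRA at 0.661-fold (0.518 to 0.836) and COL1A1 at 0.503-fold (0.389 to 0.644). COL11A1, a fibrillar collagen, had 4 against 57 UMIs, and the endosomal gene UVRAG 11 against 122. CD14 and AIF1 had ratios of 1.10 (0.733 to 1.62) and 1.01 (0.675 to 1.48). MYH7 gave 77.6% of the myosin UMIs in the macrophage spots, against 39.6% in GPNMB spots, and its part in these differences was not tested. To set like against like, a choice made after the values were seen, the 37 GPNMB spots with a macrophage UMI were compared with the same 385 spots. There C1QA was at 0.663-fold (0.297 to 1.30), CD74 at 1.24-fold (0.759 to 1.94) and COL1A1 at 0.987-fold (0.707 to 1.35), so the lower shares of these genes were no longer beyond counting error. Leaving out the richest spot as well, MMP12 had 29 against 2 UMIs, LGALS3 was 3.04-fold higher (2.40 to 3.83), CD14 2.67-fold (1.65 to 4.18) and AIF1 2.45-fold (1.52 to 3.82). CTSK was at 1.16-fold (0.908 to 1.48) and SPP1 at 0.955-fold (0.298 to 2.36). The single spots with most CD14 or AIF1 UMIs were not left out there. Of the 137 GPNMB spots other than the richest, 36 (26.3%, 19.1 to 34.5%) held a UMI of these 4 macrophage genes, and 17.2% of the GPNMB-0 spots did (15.6 to 18.8%).

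GPNMB spots were not spread evenly over the section. Positions carry no barcodes in the deposited files, but all capture areas share 1 layout. Each barcode and each position was sorted by which of the sections had tissue on it, and all 15 classes held as many barcodes as positions (2931 of each in all). Spots could so be placed as groups, a step chosen after the values were seen. The positions also under tissue in the 16-week and the fresh section, but not in the 2-week one, held 709 spots of the stored healthy section, of which 93 (13.1%, 10.7 to 15.8%) were GPNMB spots. Elsewhere 45 of 1731 were (2.60%, 1.90 to 3.46%). The group held 517 of the 570 GPNMB UMIs, the richest spot and 7 of the 8 spots with 5 or more. It held 32 of the 43 spots of the section with an MMP12 UMI. Of those 43, 23 were GPNMB spots, and the group was singled out for its GPNMB spots. Among GPNMB-0 spots, 11 MMP12 UMIs lay in the 595 spots inside the group and 12 outside it. Of its 709 positions 3.67% lay on the border of the tissue. MYH7 gave 38.1% of its myosin UMIs. Within that group the log2 ratio of MMP12 was 6.80, of LGALS3 4.13, of CD68 4.49 and of SPP1 5.54, and MYH7 was at -0.40. These values include the richest spot and are not given without it. Over the whole section, leaving that spot out took MMP12 from 7.17 to 5.09 and LGALS3 from 3.38 to 1.83. It took CD68 from 3.11 to 1.55 and SPP1 from 2.48 to 1.09.

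**Figure D5:**
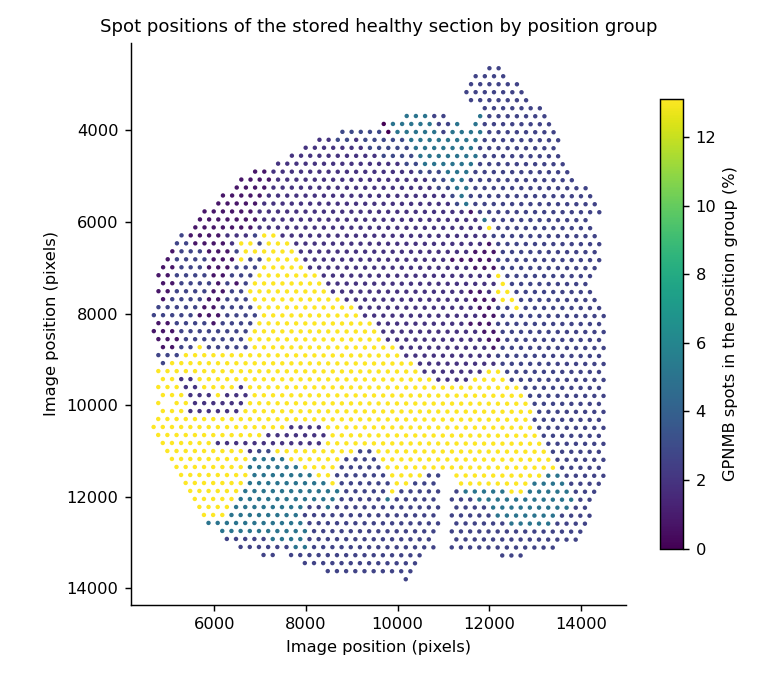
Image positions (pixels) of the spots of the stored healthy section, colored by the percentage of GPNMB spots in the position group each belongs to, a value per group and not per spot. The brightest group, with 13.1% GPNMB spots, covers a continuous area below the center, and the other groups have 5.03% or less.

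In the other sections, which the selection did not use, no spot held more than 4 GPNMB UMIs. The 16-week section held 147 GPNMB UMIs in 119 of 1726 spots (6.89%, 5.74 to 8.19%), with at most 4 in a spot. Its interval overlapped that of the stored healthy section (5.66%, 4.77 to 6.65%), at a median depth of 2065 UMIs per GPNMB spot against 5642. The 2-week section held 13 UMIs in 11 of 854 spots (1.29%) and the fresh section 12 UMIs in 10 of 1950 (0.513%), with at most 2 in a spot. At the barcode of the richest spot, the 16-week and the fresh section had 0 GPNMB UMIs. At the 1454 barcodes shared with the 16-week section, 83 spots there held GPNMB and 114 did in the stored healthy section, with 8 in common, which is 9.64% of the former and 7.02% of the latter. Of all 1454 barcodes, 7.84% were GPNMB spots of the stored healthy section.

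The same comparison within the 16-week section shared part of its genes with the stored healthy one. Of 3314 features, 505 (15.2%) were at least 2-fold higher in GPNMB than in GPNMB-0 spots and 89 (2.69%) lower, with a median log2 ratio of 0.36. Of the 3136 features tested in both sections, 96 were higher in GPNMB spots of the stored healthy section, 453 in those at 16 weeks and 39 in both, which is 40.6% of the former and 8.61% of the latter, while 14.4% of all 3136 were higher at 16 weeks. Without the richest spot, 74 were higher in the stored healthy section and 23 in both (31.1% of the 74). SPP1 was 8.51-fold higher there (5.49 to 13.1), with 38 against 57 UMIs, CD68 3.91-fold (2.68 to 5.58), CAPG 3.51-fold (2.69 to 4.53) and LGALS3 2.12-fold (1.79 to 2.50). MMP12 had 6 against 5 UMIs (15.3, 3.89 to 63.4), and ATP6V0D2 had 0 in both groups. Some genes that were less than 2-fold higher, or lower, in the GPNMB spots of the stored healthy section were past 2-fold at 16 weeks, with CSF1R at 3.61-fold (2.98 to 4.37), C1QA at 2.13-fold (1.61 to 2.77), COL1A1 at 4.62-fold (3.87 to 5.50) and MYH8 at 6.34-fold (4.68 to 8.51). Of 10 fibroblast genes, 9 were past 2-fold at 16 weeks and 0 of 10 in the stored healthy section. With 1 section each, the difference between the sections was not tested.

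At 2 weeks and in fresh muscle the GPNMB spots held too few UMIs for most genes. At 2 weeks, CD68 had 7 against 81 UMIs (5.70, 2.22 to 12.3), HLA-DRA 33 against 471 (4.62, 3.15 to 6.59) and COL3A1, a fibroblast collagen, was 2.47-fold higher (2.31 to 2.64). LGALS3 had 9 against 313 UMIs, a ratio of 1.90 (0.860 to 3.65). MMP12 had 0 UMIs in the 11 spots and 1 outside them. In the fresh section MMP12 and ATP6V0D2 had 0 UMIs in both groups, LGALS3 had 2 UMIs in the 10 GPNMB spots and CD68 had 1, with ratios of 2.17 (0.261 to 7.98) and 4.59 (0.113 to 27.2).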

How the data were processed

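Visium 3′ libraries of 4 rabbit supraspinatus sections were analysed, 1 per condition. The files deposited by the authors hold raw UMI counts of each gene in each spot under tissue, not normalized. Space Ranger 1.2.0 and the genome OryCun2.0 are named in the submitters' processing notes, and the authors aligned the images in Loupe Browser. A UMI count is a number of molecules and not of reads. Of 21139 features, 11336 carry a gene symbol, used as listed, and lists could only be read for symbols present. An annotation table of the rabbit assembly mOryCun1.1 matched none of the identifiers. The 37 mitochondrial features were recognized by neighboring identifiers.

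UMIs were summed over GPNMB spots and over GPNMB-0 spots and divided by the total of each group. Log2 ratios used 0.5 UMI added to each sum. Ratios carry exact conditional intervals, levels exact Poisson intervals and shares exact Clopper-Pearson intervals, all at 95% and for counting error only, since PCR duplicates are merged by UMI but animals and sections are not replicated. For a sum of 0, the fold value sets 3 counts over the group in its place and is not the end of the exact interval. Depth per section ranged from 4079313 to 12536450 UMIs. No spot was removed, no doublet caller was run, and no test was made.

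Named genes were, among features with a symbol and 50 or more UMIs, the top 15 and the bottom 10 by log2 ratio (8 each way against macrophage spots), members of the 25 gene lists, and the myosins MYH1, MYH4, MYH7, MYH8 and MYL4. In the richest spot, named genes with the largest or smallest ratio to the GPNMB-0 share were added after their values were seen. The former needed 10 or more UMIs in the spot, the latter 20 or more expected, and all 50 or more over both groups. The GPNMB rule, the members and the lists were chosen with earlier results of these data known. Scripts ran under Python 3.11.15 with scipy 1.17.1, numpy 2.4.6, pandas 2.3.3 and matplotlib 3.10.9 and were tested on simulated data. Alternatives left out the richest spot or the 5 richest, required 2 GPNMB UMIs, dropped the minimum of 500 UMIs, changed the totals and the scaling, weighted to depth or MYH7 share, and used minimums of 20 and 200 UMIs. Comparison within the position group, without the top spot of each gene, without genes at 0, with the minimum on GPNMB-0 spots alone, and of GPNMB spots with a macrophage UMI were chosen after seeing the data.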

Additional observations from a re-analysis of the deposited data

How the results depend on the processing

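No paired analysis was possible because each condition had 1 section. Counts of features at least 2-fold higher and lower were 131 and 134. They were 642 and 338 when a GPNMB spot needed 2 or more GPNMB UMIs, 387 and 325 with a minimum of 20 UMIs per gene, 18 and 11 with a minimum of 200, and 11 and 14 with 200 and without the richest spot. Within the position group they were 51 and 16. Counts of listed genes past 2-fold changed as follows. Without the richest spot, lipid-associated macrophage genes went from 7 to 4, osteoclast and giant cell genes from 2 to 0 and lysosome genes from 6 to 1, in part because ATP6V0D2, still at a log2 ratio of 4.77, fell under 50 UMIs. Without the 5 richest spots they went to 3, 0 and 1, and macrophage genes from 3 to 1. Lysosome genes went to 13 with 2 or more GPNMB UMIs, where the count over all features rose from 131 to 642. Macrophage genes went to 5 with a minimum of 20 UMIs, where it rose to 387, and osteoclast and giant cell genes to 1 with 200, where it fell to 18. The numbers of features and members tested at these settings or without the 5 richest spots are not given. These member counts are therefore not read against a background. Against other macrophage spots, the count of higher features went from 22 to 12 without the richest spot and to 93 with the 37 GPNMB spots that hold a macrophage UMI. With the minimum of 50 UMIs on GPNMB-0 spots alone, higher and lower features were 105 and 132, and 78 and 153 without the richest spot, lipid-associated macrophage genes went to 6 and 3, osteoclast and giant cell genes to 1 and 0 and lysosome genes to 5 and 1. The cause of these changes was not tested, except that fewer or more genes pass the other minimums. The other counts stayed within 1.5 times under leaving out the minimum of 500 UMIs, totals without mitochondrial genes, scaling to the median gene and weighting to depth or MYH7 share.

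Single log2 ratios that changed sign included those of MYL4 (-0.066) and AOAH (-0.29) without the 5 richest spots. With 2 or more GPNMB UMIs, CCL2 (-0.51) and CCL21 (-1.14) did, and within the position group CCL2 (-1.44) and TNMD (0.14). Without their own top spots, CCL2 (-2.31) and MYH8 (-0.23) did. MYH1 (-0.15) did when weighted to MYH7 share, and COL1A1 (-0.066) and PLAU (-0.053) without the richest spot. Other genes with ratios near equal shares are not all listed. Thinning to 2000 UMIs lowered shares of spots, as fewer UMIs are kept. Genes near the minimum of 50 UMIs have about 3.21 in GPNMB spots, so most ratios of such genes have wide intervals, and for genes seen in a single spot the interval covers counting only.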

Other observations

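A gene listed as GLNB2, chosen after its values were seen, had 133 UMIs in GPNMB spots and 7585 in GPNMB-0 spots, a ratio of 0.256 (0.214 to 0.304). The spots that held it were nearly as frequent in both groups without the richest spot, at 46.0% (37.4 to 54.7%) and 48.6% (46.5 to 50.7%). The sums differed through the highest spots, with at most 12 UMIs in a GPNMB spot and up to 537 in a GPNMB-0 spot. The ratio was 0.244 (0.208 to 0.284) in the 16-week section, 0.220 (0.0807 to 0.480) in the 2-week section and 0.176 (0.0645 to 0.383) in the fresh section.

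CCL21, a chemokine of lymphatic vessels chosen after its values were seen, had 88 UMIs in GPNMB and 396 in GPNMB-0 spots, a log2 ratio of 1.70. Of the 88, 40 lay in 1 spot and none in the richest, and the log2 ratio was 0.85 without that spot. Among features with an identifier only, also chosen after seeing the values, ENSOCUG00000027815 had 23 against 48 UMIs and a log2 ratio of 2.82 (1.82 without the richest spot), and ENSOCUG00000016048 had 36 against 85 and 2.64 (0.73 without it). The former passed the minimum of 50 UMIs only with its UMIs in GPNMB spots added.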
